A study of Mus musculus with 21 samples.

Results

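Mice exposed to valproic acid (VPA) before birth were compared at 12 weeks of age according to whether they had voluntary exercise, by the transcripts of EGFP-positive cells sorted from the hippocampal dentate gyrus. The comparison took 6 of the 21 libraries of the study by their labels: 3 from VPA mice with running and 3 from VPA mice with no running in their label, called sedentary here. Of 24322 gene symbols listed, the 13140 with at least 1 FPKM (mapped fragments scaled to transcript length and to the library's total) in at least 3 of these 6 libraries were tested. All mice were C57BL/6 and carried the Nestin-EGFP genotype, in which Nestin sequences drive a green fluorescent protein in neural stem and progenitor cells. Their mothers had been given VPA by mouth at 300 mg per kg per day on embryonic days 12, 13 and 14. The 3 libraries of unexposed mice at the same age, whose mothers had received methylcellulose, entered no test below, and their values are given beside the others as a description. No running group without VPA was among the samples, so an effect of running can be described only on a VPA background, and how long or how far the mice ran is not given in the sources used here.

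Granule neurons are born in the adult dentate gyrus throughout life. Radial glia-like stem cells, which share many genes with astrocytes, give rise to dividing intermediate progenitors, and these become immature and then mature granule neurons. Oligodendrocyte precursors are a separate dividing population that spreads through the same tissue and matures into myelin-forming cells. Voluntary running is known to increase the division of progenitors and the number of newborn neurons in this region, and VPA inhibits histone deacetylases.

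The labels call the sorted cells neural stem and progenitor cells, and the libraries held more than that lineage. Nes itself was at 7.86 to 12.7 FPKM in the 6 libraries, whereas 13 markers of oligodendrocyte precursors summed to 1415 to 4362 FPKM and 20 astrocyte markers to 1160 to 2441 FPKM. Markers of microglia summed to 68.5 to 159 FPKM and those of endothelial cells to 232 to 572 FPKM. The sorted population is therefore described below by gene groups and not as a pure cell type. Xist (52.9 FPKM or higher) and the Y-linked Ddx3y (6.42 FPKM or higher) were present in each of the 9 libraries at this age, which means that RNA of at least 1 female and 1 male went into each. Whether the 3 libraries of a group came from separate litters or sorts is not stated, and the p-values measure the spread between these samples, which may be technical.

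Running replicate 3 stood apart from the other libraries. It listed 1568 of the tested genes at 0, against 139 to 630 in the other 5, and small RNA genes made up 27.7% of its column sum, against 13% to 19.5%. Correlations across genes on the log scale were 0.854 to 0.909 among sedentary libraries and 0.75 to 0.856 among running libraries. The median SD of a gene on the log2 scale was 0.344 in the sedentary and 0.485 in the running group. Read counts were not among the values used, so the depth is unknown, and most gene groups are given below with and without running replicate 3.

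Across all genes, few differences stood out from this spread. In limma's linear model on log2(FPKM + 1), 1 gene was higher with running and 1 was lower at an adjusted p under 0.05, or 0.00761% of the tested genes in each direction. At an unadjusted p under 0.05, 512 genes (3.9%) were higher and 716 (5.45%) were lower. In 959 genes (7.3%) all 3 running values lay above all 3 sedentary values, and in 1139 genes (8.67%) they lay below. The log2 difference, running minus sedentary, was above 0 for 46% of the tested genes and below 0 for 54%, with a median of -0.05. These are the values against which each gene group is read. With running replicate 3 left out, 2 running values have to lie beyond 3 sedentary ones and separation is more common: 1853 of 12995 genes (14.3%) were above and 1851 (14.2%) below, with a median of 0.00. Every count without that library is read against these shares. A gene separated with all 6 libraries stays separated without that library if it is still tested. Such counts are therefore no independent support, and a rise in them is partly due to the easier criterion.

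The genes that passed were both annotated as microRNA hairpins. MicroRNAs are short RNAs that bind messenger RNAs through their seed, bases 2 to 8. Polyadenylated RNA was sequenced, so the values count fragments assigned to the hairpin loci and not the mature forms. The mature sequences are shown because these loci carry the calls that passed. They are from RefSeq on GRCm38.p6, 5′ to 3′, with the seed in capitals.

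mmu-miR-568: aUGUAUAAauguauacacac

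mmu-miR-719: aUCUCGGCuacagaaaaauguu

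The 2 seeds differ. The Mir568 hairpin lies at chr16:43640655-43640737 on the plus strand, within an exon of Zbtb20, which encodes a zinc finger factor of the developing hippocampus. Mir568 had 1525, 1609 and 2293 FPKM in the sedentary libraries and was listed at 0 in all 3 running libraries (adjusted p = 2.00e-07, or 0.0944 with all 9 libraries in the fit). The groups did not overlap, but the unexposed controls held 543, 0 and 0 FPKM, so zeros occurred there too. The Mir719 hairpin lies at chr14:60228806-60228915 on the minus strand, overlapping an exon of Nupl1, which encodes a nuclear pore protein, and of the gene model Gm49336. Mir719 was listed at 0 in the 3 sedentary libraries and had 665, 2285 and 1957 FPKM in the running libraries (adjusted p = 2.80e-05, or 0.127 with all 9 libraries in the fit). The controls held 0, 0 and 820.4 FPKM for Mir719. Neither call was matched by the gene around it: Zbtb20 had 38.7, 16.8 and 21 FPKM in sedentary and 29, 31.5 and 56.7 FPKM in running libraries (log2 difference 0.62, adjusted p = 0.671). Nupl1 had 4.32, 15.8 and 11.7 FPKM against 11.5, 6.54 and 2.89 FPKM (-0.54, adjusted p = 0.806). The groups overlapped in both of these genes, which were chosen after their values were seen. A hairpin of this length receives a high FPKM from few fragments, and a value of 0 can be a failed estimate, so these values are given without a fold change. Each locus also passed the filter on low values through 1 group alone, the one in which it was high, so its call describes these 6 libraries and is no independent support.

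**Figure D1:**
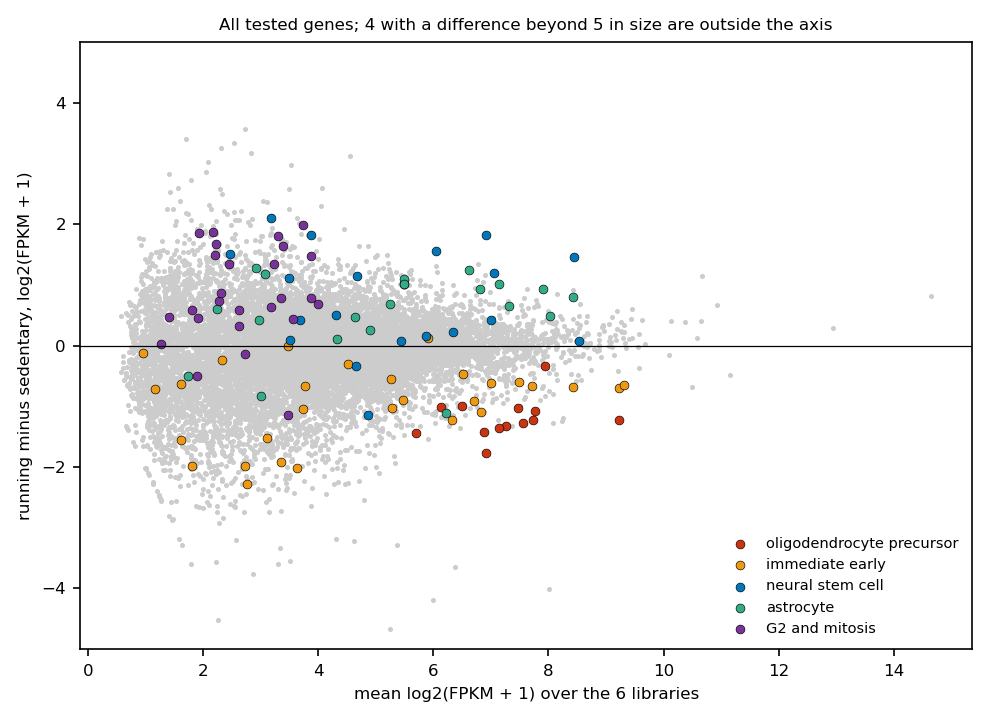
Difference of the group means of log2(FPKM + 1), running minus sedentary, against the mean over the 6 libraries for each tested gene (grey points), with members of 5 gene lists in colour. The 13 oligodendrocyte precursor genes lie below 0 at medium to high levels, and 4 genes with a difference beyond 5 in size, the microRNA loci among them, are outside the axis.

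Among protein-coding genes, those of oligodendrocyte precursors were lower in running libraries without exception. All 13 tested members of the list were below in all 3 running libraries, with a median log2 difference of -1.22 against -0.05 over all genes. None passed the adjusted threshold, and 12 of 13 had an unadjusted p under 0.05. Their summed level was 2942 to 4362 FPKM in sedentary libraries, 1415 to 1858 FPKM in running libraries and 1626 to 2510 FPKM in unexposed controls. With running replicate 3 left out the median was -1.31. All 13 were then below by construction, as they were already below with all libraries. In libraries of sorted cells in bulk, fewer cells of a type and less RNA per cell cannot be told apart, here and in every group below.

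Tnr, which encodes the matrix protein tenascin-R, lies at chr1:159523769-159931729 and had 81.7, 84.5 and 88.5 FPKM in sedentary and 29.1, 33.5 and 29.9 FPKM in running libraries. The running values were tightly grouped and far below the sedentary ones. The means were 84.9 ± 3.42 and 30.8 ± 2.35 FPKM (SD, n = 3 each), a log2 difference of -1.43 (SE 0.18, adjusted p = 0.0987). Pdgfra, the receptor through which platelet-derived growth factor maintains precursor division, lies at chr5:75152292-75198215. It had 251, 318 and 424 FPKM against 140.2, 122 and 154 FPKM (-1.22, SE 0.22, adjusted p = 0.157). Sox10, a transcription factor of the whole oligodendrocyte lineage, had 169, 183 and 229 FPKM against 83.2, 49.8 and 87.6 FPKM (-1.42, SE 0.25, adjusted p = 0.157). In both genes every sedentary library was above every running library, and the controls, at 124 to 188 FPKM for Pdgfra and 80.9 to 123 FPKM for Sox10, were below every sedentary library.

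The basic helix-loop-helix factors that specify the lineage were lower as well. Olig1 had 632, 1022 and 1202 FPKM in sedentary and 383, 356 and 445 FPKM in running libraries (-1.22, adjusted p = 0.242), the highest level of the list. Olig2 had 224, 331 and 423 FPKM against 129, 153 and 170.0 FPKM (-1.07, adjusted p = 0.283). Sedentary replicate 1 was the lowest of its group for both, yet above all running libraries. C1ql1, a secreted C1q-like protein, had 202, 299 and 235 FPKM against 99.7, 83 and 108 FPKM (-1.32, adjusted p = 0.143). Cspg4, the NG2 proteoglycan, had 78.2, 102 and 122 FPKM against 51.7, 45.2 and 49.6 FPKM (-1.01, adjusted p = 0.248). These groups did not overlap, and the running values were closer together than the sedentary ones.

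Further members spanned from receptors to matrix. The log2 difference was -1.77 for Cacng4, an AMPA receptor auxiliary subunit, -1.36 for the matrix protein Matn4, -1.02 for Lhfpl3 and -0.99 for the proteoglycan Vcan. Gpr17, a receptor of precursors that have begun to differentiate, had 327, 301 and 257 FPKM in sedentary and 81.9, 98.1 and 218 FPKM in running libraries (-1.27, adjusted p = 0.32). Running replicate 3 was the closest to the sedentary range there. The smallest difference of the list was -0.33 for Ptprz1, a receptor phosphatase that stem cells and astrocytes also express.

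The lower genes named by rule outside this list are given next, and none of them passed the adjusted threshold. Gjc3, a connexin of oligodendrocyte lineage cells, had 136, 137 and 151 FPKM in sedentary and 54.4, 55.2 and 53.6 FPKM in running libraries (-1.36, SE 0.16, adjusted p = 0.0767). The 3 running values were almost equal, and the controls were at 65, 64.9 and 53.7 FPKM. Neu4, a sialidase, had 101, 118 and 116 FPKM against 47.2, 52.9 and 52.4 FPKM (-1.12, adjusted p = 0.147). Serpine2, a protease inhibitor, had 341, 419.7 and 522 FPKM against 201, 175 and 148 FPKM (-1.28, adjusted p = 0.157). Neither gene overlapped between groups, as the rule that named them required. The somatostatin receptor gene Sstr1 had 29.1, 36.7 and 40.8 FPKM against 10.7, 7.25 and 4.61 FPKM (-2.15, adjusted p = 0.157). For Sncg, which encodes gamma-synuclein, the sedentary libraries had 8.36, 5.47 and 11.5 FPKM, and all 3 running libraries and 1 control were listed at 0. Sncg passed the filter on low values through the sedentary group alone, so its separation is no independent support. The rest of the 15 lower genes named by rule were Tmem59l, Cntn1, Rap1gap, Galnt10, Gpt2 and Susd5, at log2 differences from -1.70 to -1.13, beside Tnr, C1ql1, Lhfpl3 and Sox10 above.

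Later oligodendrocyte genes did not move as one. Of 16 tested genes of myelinating cells, 3 were above and 3 below in all running libraries, against 7.3% and 8.67% of all genes. The median was 0.04. Those below were Myrf, a factor that switches on myelin genes, Bcas1, a marker of early myelinating cells, and Ugt8a, which makes myelin lipids. Bcas1 had 68.6, 80.1 and 74.4 FPKM in sedentary and 30, 9.8 and 57.7 FPKM in running libraries (-1.48, adjusted p = 0.457). Running replicate 2 was far below the other libraries for Bcas1, though the groups did not overlap. Mal, a compact myelin gene that was above, had 13.4, 15 and 19 FPKM against 28.1, 47.2 and 20.8 FPKM (0.91, adjusted p = 0.471). The sign of this list's median changed with a filter at 5 FPKM (-0.14) and when sedentary replicate 1 (-0.21), running replicate 1 (-0.02) or running replicate 2 (-0.02) was left out. Without running replicate 3 it was 0.47, with 5 above and 5 below, against 14.3% and 14.2% of all genes.

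**Figure D2:**
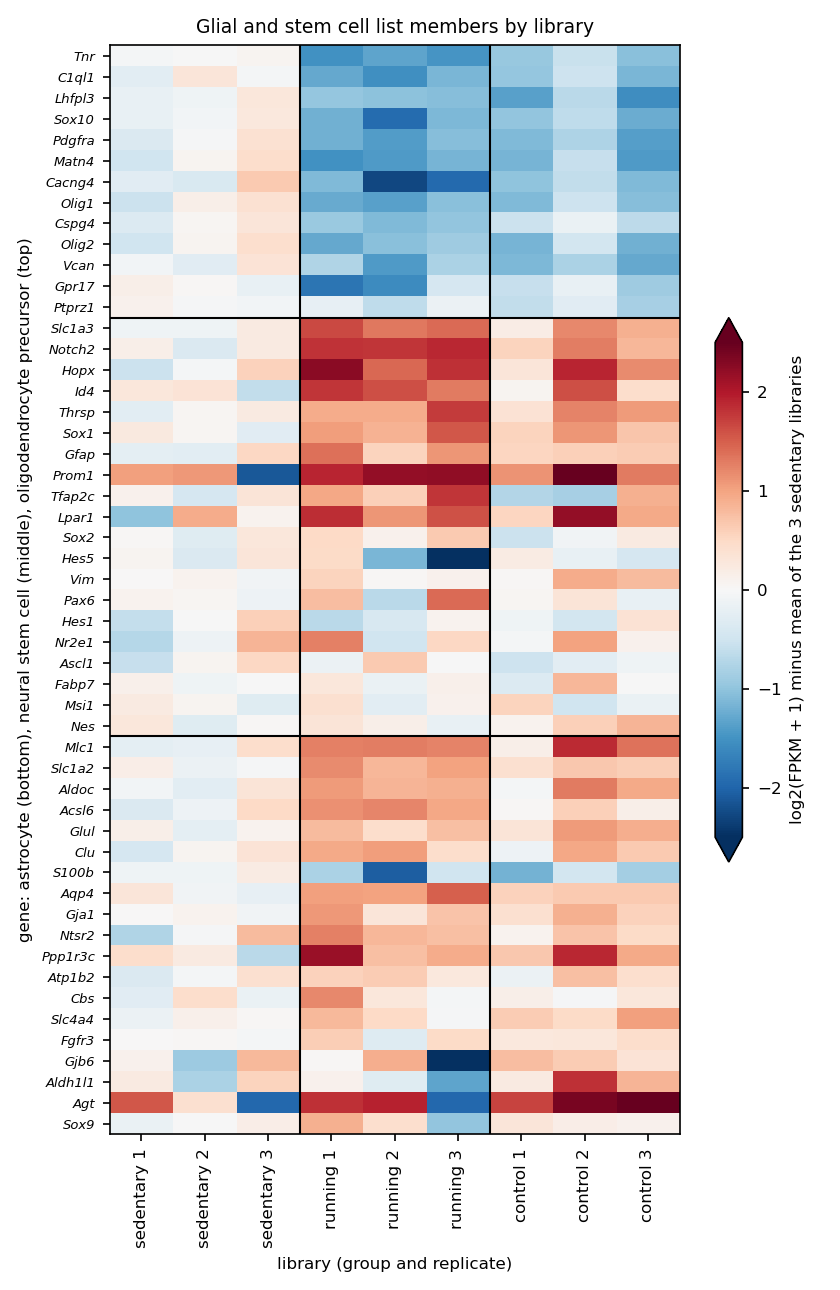
Each cell gives a gene's log2(FPKM + 1) in 1 library minus its mean over the 3 sedentary libraries, for the tested members of the oligodendrocyte precursor, neural stem cell and astrocyte lists. The top block is blue across the 3 running libraries for all 13 genes, while 18 of 20 stem cell genes and 17 of 20 astrocyte genes have a mean above the sedentary one.

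Genes of radial glia-like stem cells were higher in running libraries on the whole. Of 20 tested members, 18 had a log2 difference above 0 and 10 were above in all 3 running libraries, with 0 below, and the median was 0.76. None passed the adjusted threshold, and 10 had an unadjusted p under 0.05. The summed level was 1151 to 1346 FPKM in sedentary, 1819 to 2382 FPKM in running and 1206 to 2254 FPKM in control libraries. With running replicate 3 left out the median was 0.58. The count above was 10, the fewest possible given the count with all libraries. The count below was 0, and 14.3% and 14.2% of all genes were above and below. Oligodendrocyte precursor genes moved the other way over the same libraries, as given above, and their part in this result was not tested.

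Slc1a3, the glutamate transporter GLAST of radial glia and astrocytes, lies at chr15:8634124-8710764 and had the smallest p of the higher protein-coding genes. It had 193, 192 and 243 FPKM in sedentary and 651, 523 and 560.3 FPKM in running libraries. The gap between the groups was wider than the range within either. The means of 209 ± 28.8 and 578 ± 65.9 FPKM (SD, n = 3 each) differed 2.76-fold, with a log2 difference of 1.46 (SE 0.18, adjusted p = 0.0767). The controls had 236, 479 and 384 FPKM, all below the lowest running library.

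Hopx, which marks quiescent stem cells of the dentate gyrus, lies at chr5:77086988-77115121 and had 43.1, 61.5 and 95.4 FPKM against 306, 172 and 226 FPKM with running (1.83, SE 0.32, adjusted p = 0.157). Notch2, a receptor that keeps stem cells from dividing, had 7.67, 5.07 and 8.09 FPKM against 26.4, 26.1 and 27.9 FPKM (1.83, SE 0.31, adjusted p = 0.157). Running values of Notch2 were nearly equal and 3.86 times the sedentary mean. Id4, an inhibitor of basic helix-loop-helix factors that also holds stem cells in quiescence, had 45.8, 47.7 and 24 FPKM against 131, 117 and 93.3 FPKM (1.56, SE 0.29, adjusted p = 0.175). Thrsp, a lipid synthesis gene enriched in these stem cells, had 71.8, 89.3 and 102 FPKM against 166, 167 and 294 FPKM (1.21, adjusted p = 0.262). None of these 4 genes overlapped between the groups. For Hopx, Notch2 and Id4 this was required by the rule that named them, so it is no independent support.

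Not all stem cell markers followed. Sox2, a factor required for stem cell maintenance, had 112, 89 and 135 FPKM in sedentary and 157, 119 and 174 FPKM in running libraries (0.42, adjusted p = 0.604), and running replicate 2 lay below sedentary replicate 3. Nes, whose sequences drive the reporter, had 12.4, 7.86 and 10.2 FPKM against 12.7, 11.2 and 8.6 FPKM (0.09, adjusted p = 0.954). The groups overlapped, and the sign for Nes changed without sedentary replicate 2 (-0.06) or running replicate 1 (-0.02). The Notch target Hes5 had 44.4, 32.7 and 52.2 FPKM against 59.6, 18.6 and 5.4 FPKM (-1.14, adjusted p = 0.667). Its running values ran from the highest of the 6 to the lowest. Prom1, a membrane protein of ventricular and stem cells, had 7.93, 8.3 and 0 FPKM against 15.3, 19.1 and 19.4 FPKM, the largest difference of the list at 2.11 (adjusted p = 0.486), with sedentary replicate 3 at 0. Over the Notch pathway, 17 members had a median of 0.00, with 2 above (Notch2 and the feedback inhibitor Nrarp) and 0 below. Without running replicate 3, 5 were above and 1 below. The shares over all genes were 7.3% and 8.67%, or 14.3% and 14.2% without that library.

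Astrocyte genes were higher to a like extent. Of 20 tested members 17 had a difference above 0, 10 were above in all 3 running libraries and 1 was below, and the median was 0.67. These became 15 above and 1 below without running replicate 3, where the share over all genes also went up, from 7.3% to 14.3% above, and the median was 0.85. The summed level was 1160 to 1628 FPKM in sedentary, 1978 to 2441 FPKM in running and 1340 to 2471 FPKM in control libraries. The list shares 1 gene with the stem cell list, Gfap, which encodes an intermediate filament and had 25.7, 25.5 and 44.3 FPKM against 80.9, 45.9 and 67.3 FPKM (1.01, adjusted p = 0.367). The running values of Gfap were all above the sedentary ones, by the narrowest margin between sedentary replicate 3 and running replicate 2.

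Slc1a2, the main astrocytic glutamate transporter, had 111, 89.3 and 96.7 FPKM in sedentary and 225 and 177 FPKM in running replicates 1 and 2, with replicate 3 between them (1.01, SE 0.17, adjusted p = 0.157). Mlc1, a membrane protein of astrocyte endfeet, had 52.8, 54.4 and 84.8 FPKM against 150.2, 152 and 148 FPKM (1.25, SE 0.22, adjusted p = 0.157). Aldoc, the brain form of aldolase, had 165, 143 and 216 FPKM against 361, 311 and 321 FPKM (0.93, adjusted p = 0.242). All 3 were separated between the groups, which the rule that named Slc1a2 and Mlc1 required. The controls of Mlc1 and Aldoc reached from the sedentary to the running range, and those of Slc1a2 lay in between. Glul, which encodes glutamine synthetase, and Clu, which encodes clusterin, were 1.58 and 1.74 times as high in the running mean. Gjb6 (-0.83, adjusted p = 0.828) and Aldh1l1 (-0.51, adjusted p = 0.833) had differences below 0, with groups that overlapped. S100b was the member below in all running libraries, at 101, 101 and 125 FPKM against 62.5, 25.2 and 76.4 FPKM (-1.11, adjusted p = 0.424). It is known as an astrocyte marker that oligodendrocyte lineage cells also express, and its groups did not overlap.

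The other higher genes named by rule are given next, and none of them passed the adjusted threshold. Gstm1, a glutathione transferase, had 58.6, 64.4 and 84 FPKM in sedentary and 179, 158 and 188 FPKM in running libraries (1.34, SE 0.19, adjusted p = 0.136). Pon2, a paraoxonase with antioxidant function, had 11, 7.5 and 12.9 FPKM against 39.6, 39.3 and 46.1 FPKM (1.92, SE 0.28, adjusted p = 0.136). Prdx6, a peroxiredoxin, had 51.5, 62.6 and 56.4 FPKM against 112, 110.4 and 119.9 FPKM (0.99, adjusted p = 0.157). The running libraries were above the sedentary ones in each, as the rule that named these genes required. Islr, a secreted protein of stromal cells that was on the fibroblast list, had 6.43, 8 and 3.69 FPKM against 39.9, 28.5 and 57.6 FPKM (2.61, SE 0.39, adjusted p = 0.136), the largest difference among the 15. Of 12 tested fibroblast genes 8 had a difference above 0, and the median was 0.43. In all running libraries 2 were above and 1 was below, against 7.3% and 8.67% of all genes. Without running replicate 3, 3 were above and 1 below, against 14.3% and 14.2%, with a median of 0.48. The summed level of the fibroblast list was 410 to 678 FPKM in sedentary and 400.1 to 523 FPKM in running libraries. It includes Pdgfra, which is also on the precursor list and was the member below. The remaining genes of the 15 were Dtna, Pla2g7, Dkk3, Scg3 and Acsbg1, with log2 differences of 0.93 or more.

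**Figure D3:**
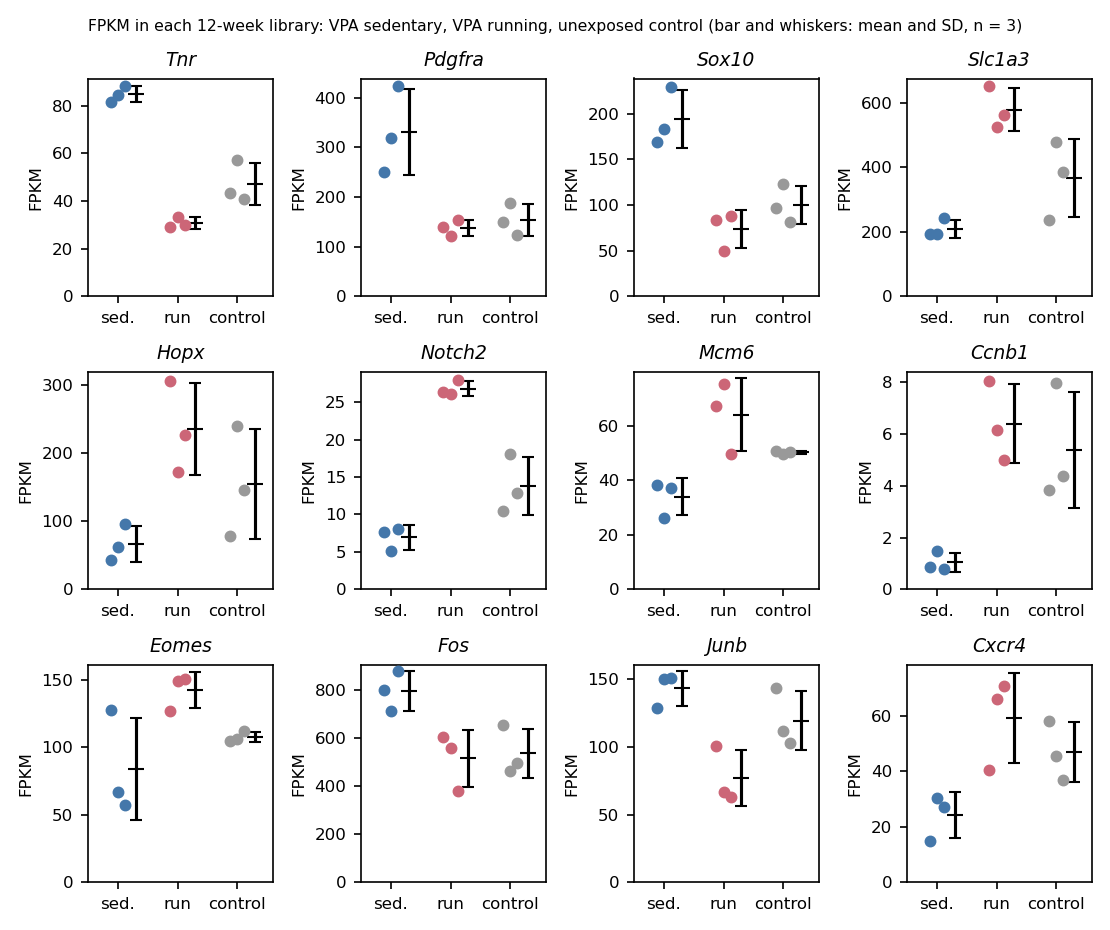
FPKM of 12 genes in each of the 9 libraries at 12 weeks, with the mean and SD of each group of 3 beside the points. Sedentary and running points are separated in all panels except Eomes, where sedentary replicate 1 reaches 127 FPKM. The panels were chosen by hand, and Tnr, Sox10, Slc1a3, Hopx and Notch2 were named by a rule that requires separation. The number of separated panels is therefore no independent support. Among all tested genes 7.3% were above and 8.67% below.

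Genes of dividing cells were higher with running at low absolute levels. Cells in G2 phase and mitosis express cyclin B and the spindle machinery, and 23 of the 26 tested genes of this kind had a difference above 0. Of these, 9 were above in all 3 running libraries and 0 were below, with a median of 0.76, and 0 passed the adjusted threshold, with 7 at an unadjusted p under 0.05. The summed level was 90.4 to 197 FPKM in sedentary, 244 to 327 FPKM in running and 170 to 251 FPKM in control libraries. Leaving out running replicate 3 gave 10 above and 0 below, against 14.3% and 14.2% of all genes, with a median of 0.97. Oligodendrocyte precursors also divide, and their genes were lower in the same running libraries. Their part in this result, and which cells expressed these genes, was not tested.

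Ccnb1, which encodes the mitotic cyclin B1, lies at chr13:100778650-100786570 and had 0.86, 1.48 and 0.784 FPKM in sedentary and 8.04, 6.15 and 5 FPKM in running libraries (1.85, SE 0.51, adjusted p = 0.337). Ccnb2, its close relative, had 6.02, 1.94 and 6.17 FPKM against 9.11, 22.4 and 25.6 FPKM (1.80, adjusted p = 0.369). Cdca8, a chromosomal passenger protein, had 5.93, 4.15 and 4.82 FPKM against 9.57, 18.4 and 30.4 FPKM (1.65, adjusted p = 0.337). The groups did not overlap for any of the 3. The proliferation marker Mki67 had 8.17, 7.81 and 4.79 FPKM against 14.9, 12.5 and 10.4 FPKM (0.79, adjusted p = 0.57), with every running library above. Birc5, which encodes survivin, had 6.66, 22.3 and 24.1 FPKM against 16, 23.6 and 0 FPKM, and the sign of its difference (-1.14) became positive (0.31) without running replicate 3, where it was listed at 0.

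Genes of DNA replication were shifted less. Of 27 S phase genes 19 had a difference above 0, 6 were above in all running libraries and 0 below, with a median of 0.29. Without running replicate 3 these were 10 and 0, against 14.3% and 14.2% of all genes, with a median of 0.49. The summed level was 413 to 496 FPKM in sedentary, 611 to 688 FPKM in running and 488 to 633 FPKM in control libraries. Mcm6, a subunit of the replicative helicase, had 38.4, 26.3 and 37.3 FPKM against 67.1, 75.4 and 49.4 FPKM (0.89, adjusted p = 0.337). Pcna, the sliding clamp of DNA polymerase, had 102, 85.4 and 81.3 FPKM against 136, 116 and 147 FPKM (0.57, adjusted p = 0.399). Rrm1, a subunit of ribonucleotide reductase, had 26.5, 21.9 and 14.5 FPKM against 35.1, 34 and 54.4 FPKM (0.95, adjusted p = 0.417). These did not overlap, and the helicase genes Mcm2 and Mcm3 were 1.69 and 1.81 times as high in the running mean. Rfc4, a clamp loader subunit, had 12.8, 19 and 10.6 FPKM against 18.1, 0 and 0 FPKM, with 2 running libraries at 0.

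The D cyclins, which drive entry into the cycle, differed in direction. Ccnd1 had 61.8, 121 and 150.5 FPKM in sedentary and 48, 44.8 and 66.4 FPKM in running libraries (-0.98, adjusted p = 0.424), and running replicate 3 lay above sedentary replicate 1. Ccnd2, the cyclin D of neural progenitors in the dentate gyrus, had 67.3, 53.3 and 30.3 FPKM against 90.1, 73.3 and 103 FPKM (0.86, adjusted p = 0.444). The Ccnd2 values did not overlap. Cdkn1b, the inhibitor p27, had 128, 126 and 128 FPKM against 150.2, 154 and 173 FPKM (0.32, adjusted p = 0.578), a small difference with close replicates.

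Along the neuronal lineage the list medians were smaller than those of the stem cell and astrocyte lists. Intermediate progenitor genes were above 0 in 11 of 12 members, with a median of 0.43. In all running libraries 4 were above and 1 was below, against 7.3% and 8.67% of all genes. Without running replicate 3, 5 were above and 1 below, against 14.3% and 14.2%, with a median of 0.45. Eomes, the Tbr2 factor that defines intermediate progenitors, had 127, 67.2 and 57.5 FPKM in sedentary and 127, 149 and 151 FPKM in running libraries (0.84, SE 0.29, adjusted p = 0.442). Sedentary replicate 1 was as high as running replicate 1, so the groups met. Insm1, a factor that promotes the birth of these progenitors, had 37, 33.6 and 25.3 FPKM against 51.1, 68.3 and 50.6 FPKM (0.81, adjusted p = 0.362), without overlap. Btg2, an antiproliferative gene that is also an immediate early gene, was the member below, at 109.6, 101 and 108 FPKM against 84.8, 70.2 and 74.8 FPKM (-0.47, adjusted p = 0.457).

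Of 22 newborn granule neuron genes 20 had a difference above 0, with a median of 0.26. In all running libraries 3 were above and 1 was below, where 7.3% and 8.67% of all genes were. Without running replicate 3 the counts were also 3 and 1, but 14.3% and 14.2% of all genes were above and below there. The median was then 0.21. Dcx, a microtubule protein of migrating neurons, had 97.3, 82.9 and 65.9 FPKM against 83.9, 105 and 111 FPKM (0.29, adjusted p = 0.714). Neurod1, which drives granule neuron differentiation, had 183, 173 and 124 FPKM against 166, 279 and 234 FPKM (0.49, adjusted p = 0.585). Prox1, which sets granule neuron identity, had 90.3, 72.9 and 73.1 FPKM against 69.3, 106 and 127 FPKM (0.32, adjusted p = 0.729). Running replicate 1 lay within the sedentary range for Dcx and Neurod1 and below it for Prox1. Neurod6 did not overlap, at 26.4, 25.1 and 11.8 FPKM against 30.8, 59 and 56.9 FPKM (1.20, adjusted p = 0.398). The adhesion molecule Ncam1 was lower, at 105, 109 and 125 FPKM against 81.7, 77.4 and 78.8 FPKM (-0.50, adjusted p = 0.418). Mature neuron genes had 0 above and 3 below of 15, and the median of -0.03 turned to 0.12 without running replicate 1 and to 0.04 without running replicate 2. It was -0.33 without running replicate 3, with 6 below. Among them Syn1, a synaptic vesicle protein, had 35.6, 32 and 31 FPKM against 15.5, 22.4 and 11.2 FPKM (-1.01, adjusted p = 0.362).

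**Figure D4:**
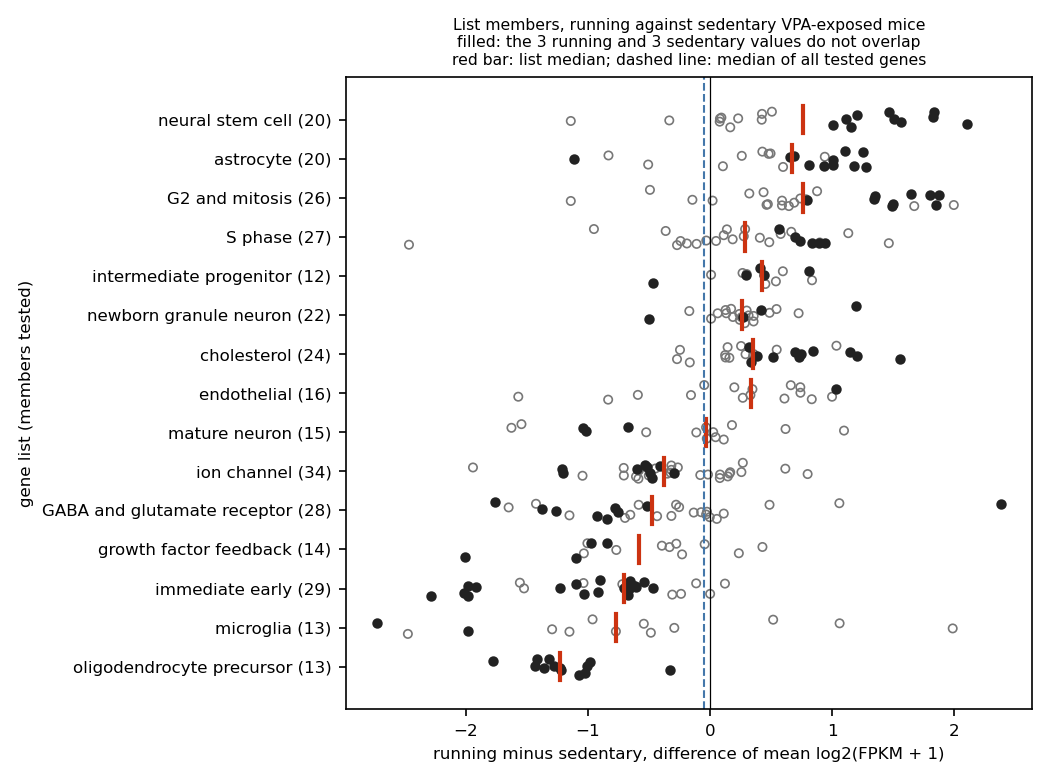
Log2 differences of the tested members of 15 gene lists, running minus sedentary, with filled points where the 3 running and 3 sedentary values did not overlap and a red bar at each list's median. Medians run from -1.22 for oligodendrocyte precursor genes to 0.76 for the stem cell and the G2 and mitosis lists, against a median of -0.05 over all tested genes (dashed line).

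Immediate early genes were lower in running libraries. These genes are switched on within minutes by neuronal activity, growth factors or stress, and many encode subunits of the AP-1 factor or zinc finger factors of the Egr family. Of 29 tested members 27 had a difference below 0, 18 were below in all 3 running libraries and 0 above, and the median was -0.70. None passed the adjusted threshold, and 15 had an unadjusted p under 0.05. The summed level was 3456 to 3711 FPKM in sedentary, 1846 to 2532 FPKM in running and 2379 to 3242 FPKM in control libraries. Without running replicate 3, 19 of 28 were below, against 14.2% of all genes, and 0 above, with a median of -0.55. The oligodendrocyte precursor and microglial genes were lower over the same libraries, and their part in this result was not tested.

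Fos, an AP-1 subunit, had 800.3, 714 and 882 FPKM in sedentary and 608, 562 and 380.3 FPKM in running libraries (-0.65, SE 0.22, adjusted p = 0.424). Egr1, a zinc finger factor of activity-dependent transcription, had 808, 748 and 729.6 FPKM against 512, 460.0 and 435 FPKM (-0.70, SE 0.16, adjusted p = 0.283). Running replicate 3 was the lowest of its group in both genes, and the lowest sedentary library was above the highest running library. Junb had 129, 149.9 and 151 FPKM against 101, 66.9 and 63.2 FPKM (-0.91, adjusted p = 0.283). The other AP-1 genes Jun, Jund and Fosb, chosen after their values were seen, had log2 differences of -0.67, -0.60 and -1.09, each without overlap. Nr4a1, an orphan nuclear receptor induced by activity, had 100.4, 127 and 140.3 FPKM against 78.4, 54.5 and 31.2 FPKM (-1.23, adjusted p = 0.319). Atf3, a stress-induced factor, had 23.4, 14.8 and 7.83 FPKM against 3.21, 6.07 and 0 FPKM (-2.28, adjusted p = 0.424), and Egr2 and Egr3 were likewise listed at 0 in running replicate 3. The 2 members above 0 had differences of at most 0.12.

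Known DNA elements that drive such genes were searched in the 250 bases before each RefSeq start of a gene, on both strands. A gene was counted if any of its promoters held a match. The cyclic AMP response element, TGACGTCA, was found for 3 of 22 immediate early genes with a RefSeq promoter (13.6%) and for 309 of 9902 tested genes (3.12%). Counted by single promoters and not by genes, it was in 508 of all 32851 (1.55%), a share not directly comparable. The CArG box, to which serum response factor binds, was found for 2 of the 22 genes (9.09%), for 143 of the 9902 genes (1.44%) and in 482 of the 32851 promoters (1.47%). The TGACGTCA matches were in Btg2, Dusp1 and Maff, and the CArG matches in Egr2 and Zfp36. Each motif was also found for 2 of 16 genes of the neural stem cell list (12.5% each), whose genes were mostly higher, and for 1 of 10 of the feedback list (10% each). Of 8 precursor genes 0 had either motif. A match is a description of the letters and not a measured site. The promoters of 3 members whose groups did not overlap are shown as examples, from RefSeq on GRCm38.p6, 5′ to 3′ on the gene's strand, with the motif in capitals. They are Btg2 at chr1:134079156-134079405 (minus strand), Dusp1 at chr17:26508473-26508722 (minus strand) and Zfp36 at chr7:28379229-28379478 (minus strand).

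Btg2: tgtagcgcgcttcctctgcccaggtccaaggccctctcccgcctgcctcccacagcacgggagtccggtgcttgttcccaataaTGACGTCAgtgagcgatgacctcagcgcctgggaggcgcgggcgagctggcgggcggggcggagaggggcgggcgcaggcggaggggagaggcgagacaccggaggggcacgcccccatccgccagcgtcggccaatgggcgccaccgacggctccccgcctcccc

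Dusp1: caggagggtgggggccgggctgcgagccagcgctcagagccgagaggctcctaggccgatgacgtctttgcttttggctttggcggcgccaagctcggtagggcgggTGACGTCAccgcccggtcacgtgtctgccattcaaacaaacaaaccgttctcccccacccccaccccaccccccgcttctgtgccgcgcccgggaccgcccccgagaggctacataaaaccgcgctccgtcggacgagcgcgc

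Zfp36: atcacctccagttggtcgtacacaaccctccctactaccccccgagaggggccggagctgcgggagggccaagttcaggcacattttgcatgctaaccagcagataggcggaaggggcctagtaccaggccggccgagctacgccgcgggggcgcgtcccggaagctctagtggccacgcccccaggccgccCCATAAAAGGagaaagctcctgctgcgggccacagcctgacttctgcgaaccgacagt

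The element in Btg2 ended 159 bases before the start, counted as -166 to -159, that in Dusp1 spanned -143 to -136 and the CArG box of Zfp36 spanned -58 to -49. Dusp1, a phosphatase that turns off MAP kinases, had 153, 161 and 161 FPKM in sedentary and 122, 98.3 and 91.9 FPKM in running libraries (-0.61, SE 0.17, adjusted p = 0.337). Zfp36, which destabilises cytokine messenger RNAs, had 53.4, 63 and 48.8 FPKM against 29.7, 19.4 and 31.7 FPKM (-1.03, SE 0.25, adjusted p = 0.287). Every running library was below every sedentary library in both genes.

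Feedback genes of growth factor signalling, which the ERK pathway induces, were lower in 12 of 14 members, with 4 below and 0 above in all running libraries and a median of -0.58. Spry1, a Sprouty inhibitor of receptor tyrosine kinases, had 43.2, 68.8 and 84.6 FPKM in sedentary and 27.1, 15.9 and 7.67 FPKM in running libraries (3.88 times as high in the sedentary mean, SE 0.44 on the log2 scale, adjusted p = 0.281). Etv4, an ETS factor induced by FGF signalling, had 48.8, 60.7 and 97.4 FPKM against 41, 23.5 and 38.1 FPKM (-0.97, adjusted p = 0.418). Neither overlapped, although the gap for Etv4 was small. Spry4 had 14.7, 38 and 31.9 FPKM against 14.1, 9.36 and 15 FPKM (2.2 times as high in the sedentary mean, adjusted p = 0.495) and met at sedentary replicate 1. With running replicate 3 left out, 7 members were below and 1 above, where 14.2% and 14.3% of all genes were. The oligodendrocyte precursor genes were lower over the same libraries, and their part in this list was not tested.

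Factors that are known to carry effects of exercise to the brain showed no common direction. Of 25 tested ligands, receptors and binding proteins, 16 had a difference above 0, 1 was above and 4 were below in all running libraries, and the median was 0.14. Over all genes 7.3% were above and 8.67% below. Without running replicate 3, 6 of 24 were above and 6 below, where 14.3% and 14.2% of all genes were, and the median was 0.15. Among ligands, Bdnf was near the limit of measurement at 0 to 2.88 FPKM in the 6 libraries, and Vegfa had 111, 167 and 194 FPKM in sedentary and 93.8, 101 and 152 FPKM in running libraries (-0.43, adjusted p = 0.671). Vegfa values overlapped, and its controls were lower still at 53.8 to 84.8 FPKM. Igf2, an insulin-like growth factor of stem cells and the choroid plexus, had 28.8, 11.2 and 16.1 FPKM against 45.8, 33.2 and 26.2 FPKM (0.94, adjusted p = 0.5), with an overlap at sedentary replicate 1. Vgf, a neuropeptide precursor induced by neurotrophins, had 8.33, 8.64 and 7.89 FPKM against 3.55, 1.86 and 3.46 FPKM (-1.26, adjusted p = 0.455).

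Among receptors and binding proteins, Ntrk3, the receptor for neurotrophin-3, had 39.6, 46.3 and 62.8 FPKM in sedentary and 24.7, 24.9 and 20.7 FPKM in running libraries (-1.03, SE 0.25, adjusted p = 0.283). The binding protein gene Igfbp3 had 26.1, 34.1 and 48.8 FPKM against 18, 7.6 and 17 FPKM (-1.34, adjusted p = 0.359). Both were separated between groups. Fgfr2 had 1.44, 3.39 and 0.66 FPKM against 7.32, 4.91 and 5.48 FPKM (1.39, adjusted p = 0.5) and was the member above. Igf1r differed by -0.26 and Fgfr1 by 0.05, within the spread of their groups, and the sign for Fgfr1 changed without sedentary replicate 1 (-0.06), running replicate 2 (-0.0003) or running replicate 3 (-0.07). Fndc5, the gene of the irisin precursor, had 8.73, 4.71 and 3.31 FPKM against 2.94, 0 and 0 FPKM.

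The chemokine receptor Cxcr4 and its ligand Cxcl12 guide the position of granule cell progenitors. Cxcr4, at chr1:128588199-128592293, had 15, 30.5 and 27.2 FPKM in sedentary and 40.5, 66.2 and 70.8 FPKM in running libraries. Every running library was above every sedentary library, and the controls, at 58.2, 45.7 and 36.9 FPKM, were also above the sedentary ones. The means of 24.2 ± 8.2 and 59.2 ± 16.3 FPKM (SD, n = 3 each) differed 2.44-fold, with a log2 difference of 1.27 (SE 0.33, adjusted p = 0.319). Over 16 other ways of processing, the log2 difference of Cxcr4 ran from 0.96 to 1.52. Cxcl12 had 24.2, 35.2 and 21.1 FPKM against 41.2, 35.1 and 17.4 FPKM (0.16, adjusted p = 0.915), and the decoy receptor gene Ackr3 had 26, 51.6 and 22.8 FPKM against 35.9, 41.2 and 30.6 FPKM (0.18, adjusted p = 0.889). These overlapped widely, and both signs turned with 1 library left out: Cxcl12 without running replicate 1 (-0.08) and Ackr3 without sedentary replicate 3 (-0.04). Of the 6 tested genes of this axis, 1 was above and 0 below, and without running replicate 3 the counts were again 1 and 0.

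Genes of cholesterol synthesis and uptake were higher as a group. Of 24 tested members 21 had a difference above 0, 11 were above in all 3 running libraries and 0 below, and the median was 0.36. The summed level was 1757 to 2025 FPKM in sedentary, 2276 to 2837 FPKM in running and 1748 to 3385 FPKM in control libraries. Without running replicate 3 the counts were 15 above and 0 below, against 14.3% and 14.2% of all genes. Msmo1, a sterol demethylation enzyme, had 35.7, 35.5 and 20 FPKM against 62.5, 89.5 and 52.4 FPKM (1.15, SE 0.30, adjusted p = 0.319). Cyp51, which demethylates lanosterol, had 23.6, 20.1 and 12.8 FPKM against 31.9, 29.7 and 39.8 FPKM (0.84, adjusted p = 0.447). Fdft1, the squalene synthase gene, had 13.1, 17.4 and 14.1 FPKM against 24.6, 24.2 and 27.8 FPKM (0.75, adjusted p = 0.447). Sedentary replicate 3 was the lowest library for Msmo1 and Cyp51, and none of the 3 overlapped. Astrocytes are a main source of cholesterol in the brain, and the astrocyte genes were higher over the same libraries, whose part was not tested.

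Receptor and channel genes were lower on balance. Of 28 tested GABA and glutamate receptor subunits 23 had a difference below 0, 8 were below and 1 was above in all running libraries, and the median was -0.47. Without running replicate 3, 13 of 27 were below, against 14.2% of all genes, and 3 above, with a median of -0.59. Gria4, an AMPA receptor subunit, had 31.4, 32.3 and 32.9 FPKM in sedentary and 14.9, 19.5 and 15.3 FPKM in running libraries (-0.93, SE 0.24, adjusted p = 0.319). Gabra3, a GABA-A receptor subunit, had 18, 15.1 and 12.1 FPKM against 2.79, 6.2 and 2.79 FPKM (-1.76, adjusted p = 0.287). Grin3a, an NMDA receptor subunit, had 17.9, 14.7 and 22.6 FPKM against 8.07, 7.21 and 5.85 FPKM (-1.26, adjusted p = 0.336). The groups were separated in all of these. Gabrb1, a GABA-A subunit that glial cells also express, was the member above, at 0, 3.72 and 9.05 FPKM against 15.3, 20.1 and 18.5 FPKM (2.38, adjusted p = 0.416).

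Of 34 ion channel genes 25 had a difference below 0, 9 were below and 0 above, and the median was -0.38. Without running replicate 3, 12 were below and 1 above, with a median of -0.36. The shares over all genes were 8.67% below and 7.3% above, or 14.2% and 14.3% without that library. Kcnk1, a leak potassium channel, had 65, 38.4 and 50.6 FPKM against 26.7, 19.9 and 17.9 FPKM (-1.21, SE 0.27, adjusted p = 0.283). Kcnd2, an A-type potassium channel, had 13.6, 19.4 and 21.5 FPKM against 8.93, 4.17 and 9.69 FPKM (-1.21, adjusted p = 0.424). Neither overlapped. Oligodendrocyte precursors are known to express many receptors and channels of these families, their markers were lower in the same libraries, and their part in both lists was not tested.

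Markers of other cells that the sort could hold were checked in the same way. Their counts are read against 7.3% above and 8.67% below over all genes, or 14.3% and 14.2% without running replicate 3. Of 13 tested microglial genes 10 had a difference below 0 and 2 were below in all running libraries, with a median of -0.77, or 4 of 12 below and -0.48 without running replicate 3. The summed microglial level was 140 to 159 FPKM in sedentary and 68.5 to 141 FPKM in running libraries, and Aif1 was at 0 in all 6. C1qb, a complement gene, had 28, 15.2 and 37.3 FPKM against 5.21, 9.02 and 0 FPKM (-2.72, adjusted p = 0.367), whereas Cd68, a lysosomal protein of the same cells, had 0, 11.4 and 2.54 FPKM against 11.3, 19.7 and 9.76 FPKM (1.99). Endothelial genes had 1 above and 0 below of 16, with a median of 0.34 that became -0.08 without sedentary replicate 3 and 0.86, with 7 above, without running replicate 3. Pericyte genes had 3 above and 2 below of 15 and a median of 0.07, whose sign changed without sedentary replicate 1 (-0.14), running replicate 1 (-0.17) or running replicate 2 (-0.08) and which had 7 above and 2 below without running replicate 3. Markers of GABAergic neurons summed to 211 to 303 FPKM in sedentary and 193 to 226 FPKM in running libraries, with Lhx6, Sst and Vip at 0 in all 6.

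Choroid plexus and ependymal genes differed widely between single libraries. Their 14 listed genes summed to 127, 257 and 173 FPKM in sedentary and 97.4, 515 and 716 FPKM in running libraries, and to 96.5 to 194 FPKM in controls. Running replicates 2 and 3 were far above the rest, and running replicate 1 was the lowest of the 6. Ttr, the transthyretin gene of the choroid plexus, gave most of the sum in those 2 libraries, at 18, 87.4 and 22.6 FPKM against 0.088, 316 and 558 FPKM (0.76, with an opposite sign of -0.47 without running replicate 2 and -0.88 without running replicate 3). Clic6, a chloride channel gene of the same epithelium, had 0, 0.172 and 0 FPKM against 1.1, 3.49 and 3.9 FPKM. Clic6 passed the filter on low values through the running group alone, so its separation is no independent support. Of 5 tested members 1 was above and 0 below, with a median of 0.31, or 0 above of 3 tested and -0.37 without running replicate 3. The part of this tissue in other differences was not tested.

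Medians of several broad groups lay near 0. Respiratory chain genes had a median of 0.02 over 75 members, with 6 above and 3 below, or 11 and 7 without running replicate 3. Cytosolic ribosomal protein genes had a median of 0.14 over 76 members, with 11 above and 2 below, or 20 and 5 without running replicate 3. The shares over all genes were 7.3% and 8.67%, or 14.3% and 14.2% without that library. Chromatin regulators had a median of 0.01 over 28 members and histone deacetylases, the targets of VPA, 0.07 over 13. The signs of the respiratory chain, chromatin regulator and histone deacetylase medians changed with single libraries left out, and that of the ribosomal protein genes did not.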

How the data were processed

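Per the labels' protocols, EGFP-positive cells were isolated by flow cytometry and polyadenylated RNA was taken with magnetic beads for standard Illumina libraries. The genome build mm10 and the tools Bowtie2, Cuffdiff, Cufflinks and TopHat are listed per the submitters' processing notes, and versions are not given in the sources used here. All deposited 12-week tables list 1 FPKM value per gene symbol and library, per the file headers. No strand is stated, so reads of overlapping or antisense genes and close paralogues may be included in a gene's value.

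The model was fitted to log2(FPKM + 1), a scale that understates the change of low genes, with limma 3.58.1 in R 4.3.3 (lmFit, eBayes with an intensity trend) on the 6 libraries. A gene was kept with at least 1 FPKM in at least 3 libraries. P-values are two-sided and adjusted by Benjamini-Hochberg over all 13140 genes, with a threshold of 0.05. "Above" and "below" mean that the 3 running values all lie above or below the 3 sedentary ones. The procedure was tested on simulated data. No libraries were identical. Same-numbered libraries did not deviate together (correlations of 0.000715, -0.00761 and -0.00361), so replicate numbers were not used to pair them.

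Named genes are the 15 of smallest p in each direction with separated groups and 5 FPKM or more in the mean of the higher group (no gene that passed met these conditions, which leave out small RNA genes), up to 3 per list and direction, and 18 fixed genes. Others, among them the rest of the oligodendrocyte precursor list, Thrsp, Prom1, Glul, Clu, Jun, Jund, Fosb, Nr4a1, Atf3, Egr2, Egr3, Dusp1, Maff, Mcm2, Mcm3, Fndc5, Zbtb20 and Nupl1, were chosen after their values were seen. The comparison and the 41 gene lists were chosen with earlier results of these data known. Positions are from GENCODE vM21, on the same build. The 12 libraries of embryonic day 15 and postnatal day 5 were not used here. Counts without running replicate 3 were added after seeing the data.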

Additional observations from a re-analysis of the deposited data

How the results depend on the processing

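The calls of Mir719 (1 gene higher) and Mir568 (1 gene lower) were the same with a pseudocount of 0.1, with no filter or one at 5 FPKM, and with median-of-ratios or quantile scaling. With small RNA genes removed, Mir568 and Mir719 were lost by construction. Of the 13132 genes then tested 0 were higher and 0 lower, with a smallest adjusted p of 0.114 in the same model. At an unadjusted p under 0.05 there were 488 and 737. Array quality weights, which gave running replicate 3 the lowest weight (0.328), called 10 higher, among them Slc1a3, Hopx, Gstm1 and Pon2, and 11 lower, among them Tnr, C1ql1, Gjc3, Neu4 and Gpr17. Without the trend 2 were lower, and with all 9 libraries in the fit 0 were higher and 2 lower (Gjc3, AA465934), with Mir568 at an adjusted p of 0.0944 and Mir719 at 0.127. With 1 library left out, 0 to 1 were higher and 0 to 2 lower, as Mir568 without a sedentary and Mir719 without a running library miss the filter, and 1378 to 1853 genes lay above and 1563 to 2056 below. A replicate block, which the numbers do not justify, gave 1 higher and 1 lower, with 424 and 653 at an unadjusted p under 0.05, and no same-numbered pair correlated best. Of 160 genes followed over 16 alternatives, 154 kept their direction. Many of them were named because their groups did not overlap, and such a gene cannot change direction when 1 library is left out. The number is thus partly fixed by the choice of genes. With array weights Fgfr1 (-0.0227), Ackr3 (-0.0834) and Ttr (-1.86) reversed, and so did Ttr with a pseudocount of 0.1 (-0.0404). With 1 library left out Nes ranged from -0.0613 to 0.238, Fgfr1 from -0.0713 to 0.224, Cxcl12 from -0.0769 to 0.522, Ackr3 from -0.0393 to 0.532, Birc5 from -1.998 to 0.313, the last without running replicate 3, and Ttr from -0.878 to 3.62. Where no construction is named, the cause was not tested. Of 41 list medians 24 kept their sign, those of oligodendrocyte precursor (-1.41 to -1.03), stem cell (0.58 to 1.17), astrocyte (0.55 to 0.85), G2 and mitosis (0.36 to 1.10) and immediate early genes (-0.92 to -0.55) among them.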

Other observations

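Hedgehog signalling maintains adult stem cells, and 10 of its 12 tested genes had a log2 difference above 0, with a median of 0.41 and 2 above and 1 below in all running libraries. Gli1, a transcriptional output of the pathway, had 2.55, 5.18 and 11.1 FPKM in sedentary and 21.6, 12.6 and 14.3 FPKM in running libraries (1.38, adjusted p = 0.466). Without running replicate 3, 3 were above and 1 below of 11 tested, where 14.3% and 14.2% of all genes were, and the median was 0.62. Oxidative stress genes had 5 above and 0 below of 23, against 7.3% and 8.67% of all genes, with a median of 0.26. Without running replicate 3 they had 9 above and 3 below, against 14.3% and 14.2%, with a median of 0.30. Nfe2l2, the NRF2 factor that induces antioxidant genes, had 16.2, 10.5 and 17.7 FPKM against 43, 36.4 and 26.6 FPKM (1.20, adjusted p = 0.309), with no overlap. The metallothionein gene Mt2 had 197, 218 and 359 FPKM against 630.1, 492 and 337 FPKM (0.92, adjusted p = 0.406), and running replicate 3 lay within the sedentary range.

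Matrix and adhesion genes differed in direction, with 5 above and 7 below of 31 and a median of -0.03. Without running replicate 3, 10 were above and 8 below. The shares over all genes were 7.3% and 8.67%, or 14.3% and 14.2% without that library. Sparc, a matricellular protein, had 115, 122 and 127 FPKM in sedentary and 249.7, 211 and 156 FPKM in running libraries (0.73, adjusted p = 0.337). Cdh4, which encodes R-cadherin, had 6.94, 4.87 and 3.13 FPKM against 19.7, 16.2 and 18.4 FPKM (1.72, adjusted p = 0.283). Bcan, the proteoglycan brevican, was lower at 372, 454 and 584 FPKM against 242, 163 and 208 FPKM (-1.19, adjusted p = 0.185). None of these 3 genes overlapped between the groups, and Tnr and Vcan of the precursor list were among the lower members. The sign of this list's median changed under 8 of 16 alternatives.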
